A study of Gallus gallus with 4 samples.

Results

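The repeats described here are the longer simple repeats made of G and C alone: tandem arrays whose repeated unit has 5 or more letters, each of them G or C. They were picked by name from the repeat tables of an RNA-seq series on chick cranial neural folds (Gallus gallus), and 189 of the 11336 repeat names fit. The Chiwi knockout libraries hold folds electroporated at stage HH4 with a Cas9 construct and guides against Chiwi, a chicken PIWI protein. The control libraries hold folds that received the same Cas9 construct with control guides. All embryos were kept at 37 °C for about 18 h before electroporation and about 14 h after it, and were collected at HH9-. Knockout plasmids went to the right side and control plasmids to the left, so side and guide cannot be told apart. Each library pools folds of several embryos, and electroporation reaches only some of the cells of a fold. There were 2 libraries per group, and nothing says that they came from separate sets of embryos, so p-values measure only the spread between these pools.

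A simple repeat is a short unit copied head to tail, and it grows or shrinks when the copying polymerase slips. Arrays of G and C alone are rich in CpG steps and are common in CpG islands, around promoters and in first exons of vertebrate genes. Strands with runs of G can fold into G-quadruplexes, both in DNA and in RNA. PIWI proteins bind piRNAs and silence transposons in germ cells, the role they are best known for. Simple repeats are not mobile elements, and reads within them in RNA-seq can come from any transcript that contains such an array.

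The names give the unit as it reads on one strand from one starting letter, so a single kind of array can carry many names. The examples below show 3 copies of the unit, 5′ to 3′, as a script wrote them from the names in the deposited tables, with runs of 3 or more equal letters in capitals. The first pair holds no such run and has high levels under both names, and the next pair has runs on either strand. The third pair is the name of highest level with its reverse complement, which had few reads. The strand setting of the counting was not given, so levels by name do not tell which strand the RNA came from. The last name is the one with the smallest p-value in the comparison of knockout and control.
C-rich strand without runs, (CGCCG)n: cgccgcgccgcgccg
G-rich strand without runs, (CGGCG)n: cggcgcggcgcggcg
C-rich strand with runs of C, (CCGCC)n: ccgCCCCgCCCCgcc
G-rich strand with runs of G, (GGCGG)n: ggcGGGGcGGGGcgg
Name of highest level, (CGGCCC)n: cggCCCCggCCCCggCCC
Reverse complement of the highest name, (GGGCCG)n: GGGccGGGGccGGGGccg
Name with the smallest p-value, (CCCCGCC)n: CCCCgCCCCCCgCCCCCCgcc

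The gene tables held 38783357 and 39386284 reads in knockout replicates 1 and 2, and 40352750 and 40092258 reads in control replicates 1 and 2. Levels below are counts per 1000000 of these gene reads (CPM), which leaves a shift of all repeats visible. A count of 3 reads, the limit that a count of 0 allows, is 0.0774 CPM in the shallowest library, and this limit covers counting error only. Over these repeats, replicates differed beyond counting noise: chi-square over its degrees of freedom was 3.83 for the knockout pair and 4.05 for the control pair. Here each pair was scaled to its own reads over these repeats instead of gene reads. A shift shared by all of them is therefore left out of these 2 values. In such bulk tissue, fewer cells of a type and less RNA per cell cannot be told apart. The gene tables give Ensembl IDs only, and the reference table used here paired 0 of 24356 with a symbol, so the level of Chiwi and the markers of neural fold tissue were not analysed here.

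Longer G/C-only repeats took 3.41% of all repeat reads. Their summed level was 2416 and 2495 CPM in the knockout libraries, against 2604 and 2239.6 CPM in the control libraries. The highest and the lowest value both came from control libraries, and both knockout libraries lay between them. The means were 2455 ± 55.2 CPM in knockout folds and 2422 ± 258 CPM in control folds (SD, n = 2 each), a ratio of 1.01. Leaving out control replicate 1 gave 1.10 and leaving out control replicate 2 gave 0.943, so its direction depended on which control library was kept. No p is given for such sums, and with 2 against 2 libraries an exact two-sided permutation test cannot go below 0.33.

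From 5 letters up, levels were lower the longer the unit. Units of 5 letters summed to 1387 and 1419 CPM in knockout folds, against 1504 and 1275 CPM in control folds. Units of 6 letters summed to 655 and 678 CPM in knockout folds, against 689 and 605 CPM in control folds. Units of 7 letters summed to 366 and 390.3 CPM in knockout folds, against 404 and 353 CPM in control folds. In each of these lengths control replicate 1 was the highest library and control replicate 2 the lowest. The 13 names of 8 letters summed to only 8.46 and 6.55 CPM in knockout folds, against 7.31 and 5.94 CPM in control folds. The single name of 9 letters, (GCGGCGGCC)n, had 11 reads over the 4 libraries.

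**Figure D1:**
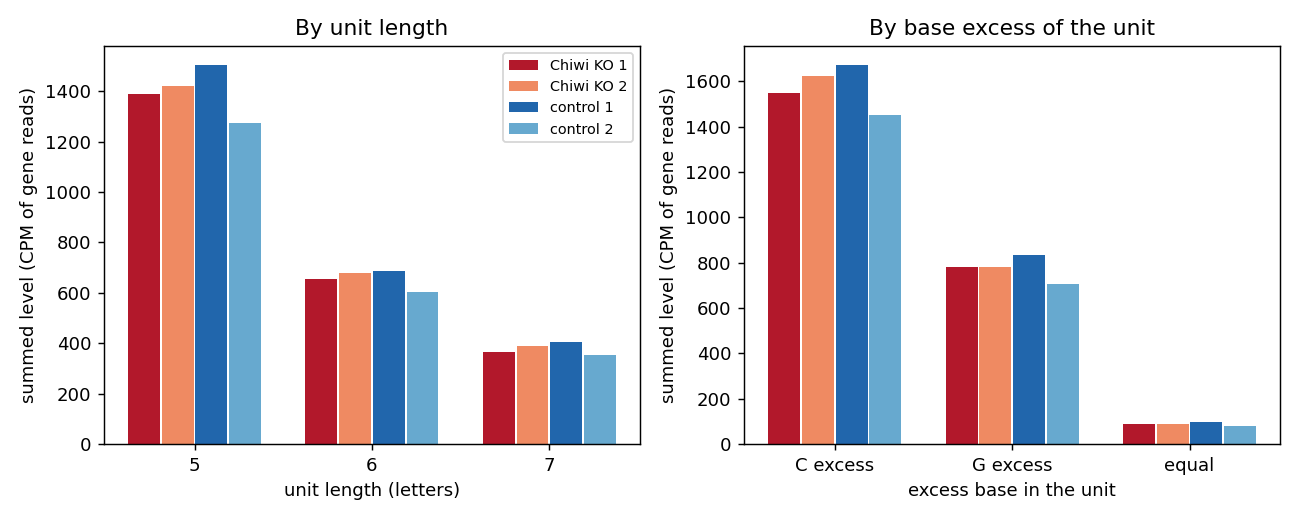
Summed level (CPM of gene reads) of longer G/C-only repeats in each of the 4 libraries, by unit length of 5, 6 and 7 letters (left) and by the base in excess in the unit (right). In every bar group control replicate 1 is the highest library and control replicate 2 the lowest, with both knockout libraries between them.

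The median level per name was also lower at each greater length. The median name had 43.6 CPM at 5 letters, 5.47 CPM at 6, 1.03 CPM at 7 and 0.151 CPM at 8. Of the units that G and C can spell, the tables list 31 of 32 at 5 letters, 56 of 64 at 6, 88 of 128 at 7, 13 of 256 at 8 and 1 of 512 at 9. The single 5-letter unit not listed is (GGGGG)n. The listed units of a single base are all of C, and averaged 0.926 CPM over the 4 libraries for the unit of 5 letters, 1.27 CPM for that of 6 and 0.485 CPM for that of 7. Just outside the length limit, the highest 4-letter names were (GCGG)n at 55.1 CPM, (CCGC)n at 53.2 CPM and (CGCC)n at 42.8 CPM. The 16 names of 4 letters summed to 266 ± 9.53 CPM in knockout folds and 267 ± 26.6 CPM in control folds (SD, n = 2 each). Their median was 4.16 CPM. Both sum and median lay below those at 5 and 6 letters, so the fall with length did not hold from 4 letters. Just inside the limit, the highest 5-letter names averaged 157, 123 and 93.1 CPM, and are given next.

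The level was spread unevenly over the names. The 10 highest names held 39.9% of it, and 15 names reached 50%. The highest was (CGGCCC)n, at 201 and 205 CPM in knockout folds, against 204 and 188 CPM in control folds. (CGGCG)n followed at 156 and 161 CPM in knockout folds, against 163 and 148 CPM in control folds. Its reverse complement (CGCCG)n had 131 and 126 CPM in knockout folds, against 127 and 109 CPM in control folds. Control replicate 2 was the lowest library for all 3 names, and the groups overlapped for each.

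For (GGCGC)n, the fourth in level, the libraries split by replicate number. It had 104 and 82.4 CPM in knockout replicates 1 and 2, against 112 and 73.4 CPM in control replicates 1 and 2. Both libraries numbered 1 were above both numbered 2, and the groups overlapped. The next 3 names in level all spell 1 kind of array, with 4 letters of one base and 1 of the other, from different starting letters or strands. (CGCCC)n had 70.1 and 77.0 CPM in knockout folds, against 84.7 and 70.0 CPM in control folds. (GGCGG)n had 64.4 and 69.5 CPM in knockout folds, against 74.9 and 63.6 CPM in control folds. The third, (CCGCC)n, had 62.9 and 71.7 CPM in knockout folds, against 73.0 and 64.4 CPM in control folds. The groups overlapped for all 3. Of the others among the 10 highest, (CCGCG)n averaged 65.0 CPM over the 4 libraries and (GCCGGCC)n averaged 64.1 CPM. (GCCGG)n had 61.0 and 62.2 CPM in knockout folds, against 60.2 and 55.5 CPM in control folds, and was the only one of the 10 without overlap between groups (log2 fold change 0.090, SE 0.11), a state found for 25.8% of all repeat names tested. Of the 30 highest names, 30 had more in control replicate 1 than in control replicate 2, against 59.9% of all repeat names tested.

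**Figure D2:**
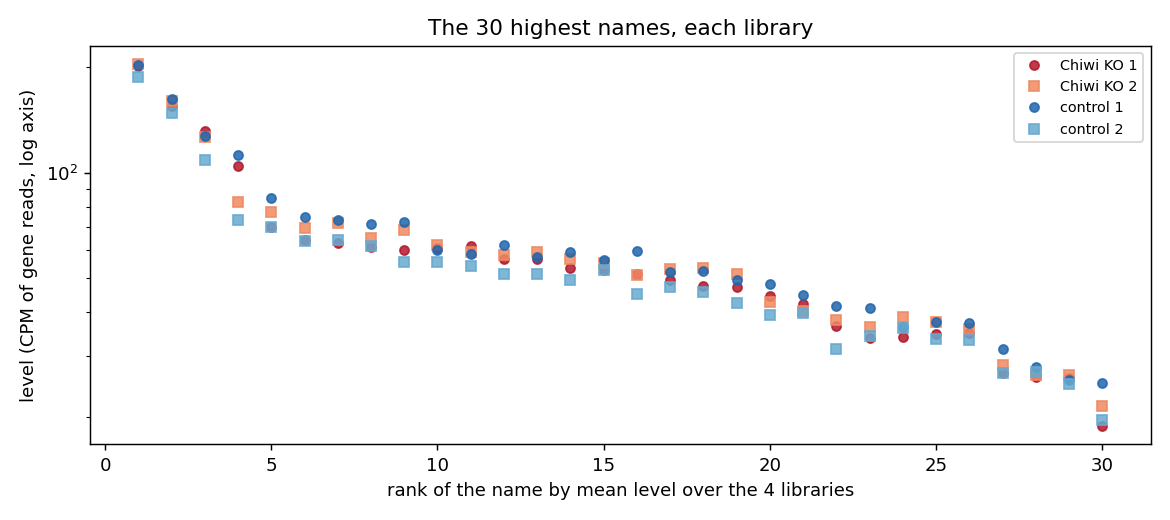
Level (CPM of gene reads, log axis) of the 30 highest names in each of the 4 libraries, ordered by their mean over the libraries. Control replicate 1 lies above control replicate 2 for all 30 names.

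At the other end, 118 of the 189 names averaged at least 1 CPM, 26 averaged under 0.1 CPM, and 7 had no read in any library. The low-count filter kept 146 names for testing. The 43 names it left out had at most 47 reads each over the 4 libraries and together summed to 3.04 and 3.78 CPM in knockout folds, against 4.14 and 3.07 CPM in control folds.

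When names that are rotations or reverse complements of each other were summed, the 189 names fell into 32 families, and 4 families held 69.5% of the level. The largest, the (CCGCG)n family, has 2 CpG steps per unit and no run longer than 2, and held 30.2% of the level in 10 names. It summed to 749.5 and 742 CPM in knockout folds, against 788 and 671 CPM in control folds. The (CCCCG)n family, which has a run of 4, summed to 323 and 351 CPM in knockout folds, against 378 and 317 CPM in control folds. The (CCCGG)n family summed to 313 and 325 CPM in knockout folds, against 337 and 286 CPM in control folds. The (CCCCGG)n family of 6 letters summed to 303 and 309 CPM in knockout folds, against 311 and 276 CPM in control folds. In all 4 families control replicate 1 was the highest library and control replicate 2 the lowest.

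Within a family the level differed strongly between names, which differ in starting letter and in strand. In the (CCGCG)n family the 10 names ranged 36.2 to 157 CPM, and the highest name held 21.3% of the family. In the (CCCCGG)n family (CGGCCC)n alone held 66.5%, in the (CCGCCGG)n family (GCCGGCC)n held 53.9%, and in the (CCCGCGG)n family (GCCGCGG)n held 84.3%. Names in the (CCGCCG)n family, such as (CGGCGG)n at 26.8 CPM, hold a 3-letter unit written out as 6 letters and were kept because the rule counts the letters of the name.

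Names with more C than G summed to 1546 and 1624 CPM in knockout folds, against 1672 and 1451 CPM in control folds. Names with more G than C summed to 780.5 and 779 CPM in knockout folds, against 835 and 707 CPM in control folds. The first set has 105 names and the second 66. The 18 names with equal G and C summed to 90.1 and 90.8 CPM in knockout folds, against 97.3 and 81.5 CPM in control folds. Knockout over control ratios of the 3 sets were 1.02, 1.01 and 1.01, and the groups overlapped in each.

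Summed over families, the gap between C-rich and G-rich names grew with the longest run of one base in the array, though not family by family. In the 6 families with no run longer than 2, names with more C summed to 481 CPM and names with more G to 471 CPM over the 4 libraries, a ratio of 1.02. In the 6 families with a run of 3 the ratio was 1.71, with 361 CPM for names with more C and 211 CPM for names with more G. In the 7 families with a run of 4 it was 6.36, with 586 CPM for names with more C and 92.2 CPM for names with more G. In the 7 families with a run of 5 or more it was 195, with 145 CPM on the C-rich side and 0.742 CPM on the G-rich side. Some families with runs of 3 or more have no listed name with more G, so their G-rich side was fixed at 0. The 0.742 CPM came from the (CCCCCG)n family alone, whose own ratio was 140. Other families with runs and equal numbers of names on both sides were (CCCGG)n at 1.46, (CCCCG)n at 3.56 and (CCCCGG)n at 21.5. These ratios are descriptions of the 4 libraries, and grouping by run was chosen after the values were seen.

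Each library showed the same order of these ratios. With runs up to 2 the ratio of C-rich to G-rich names was 1.01 and 1.06 in knockout, against 0.995 and 1.03 in control folds. With runs of 3 it was 1.61 and 1.76 in knockout, against 1.71 and 1.75 in control folds. With runs of 4 it was 6.54 and 6.28 in knockout, against 6.25 and 6.39 in control folds. With runs of 5 or more it was 207 and 267 in knockout, against 171 and 163 in control folds, where the G-rich side rests on 0.559 to 0.892 CPM. Families did not all follow the sums. In the group without longer runs, 5 of 6 had more on the G-rich side, but the (CCGCCGCG)n and (CCGCCGCGG)n families among them list no C-rich name. The remaining family of that group, (CCGCCGG)n, had 97.9 CPM on the C-rich side and 21.0 CPM on the G-rich side. Its ratio of 4.66 was above the 3.56 of the (CCCCG)n family, which has a run of 4. In the group with a run of 3 the (CCCGCGG)n family had 43.0 CPM on the G-rich side and 6.36 CPM on the C-rich side.

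**Figure D3:**
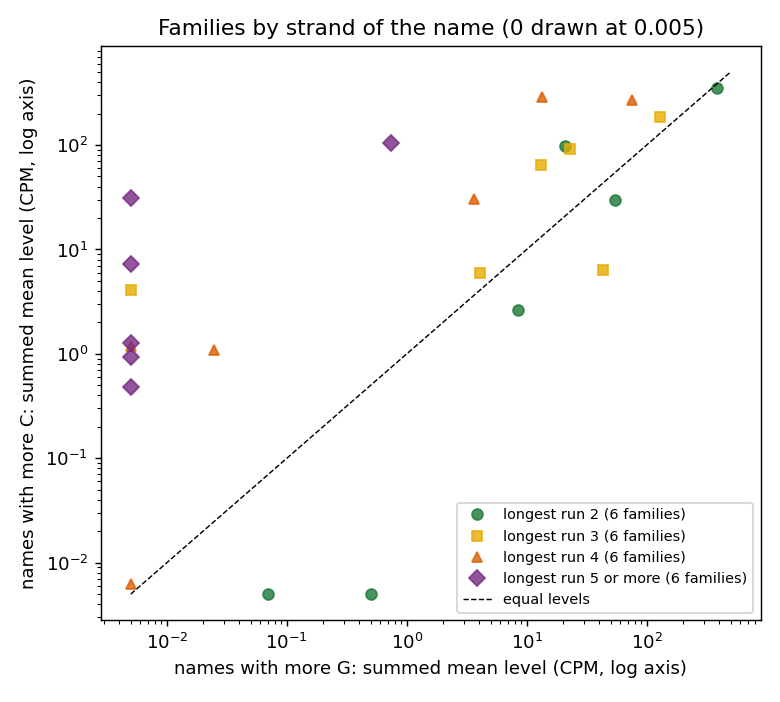
Summed mean level over the 4 libraries (CPM, log axes) of the names with more C (vertical) and of the names with more G (horizontal) in each family with unequal G and C and at least 1 read, marked by the longest run of one base. Families with runs of 4 or more lie above the line of equal levels, and families with runs up to 2 lie on both sides of it. For families with no listed name on the G-rich or the C-rich side, the side of the line was fixed in advance.

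Another name of the tables, the low-complexity label G-rich, ran the other way. It had 1764 and 1888 CPM in knockout folds, against 1887 and 1685 CPM in control folds, while its counterpart C-rich had 0.670 and 1.17 CPM in knockout folds, against 0.843 and 1.20 CPM in control folds. The part of this label in the gap between C-rich and G-rich names was not tested. Copy numbers of each name in the genome were not analysed here, so more annotated arrays and more reads per array cannot be told apart.

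Exact reverse complements can be compared name by name. Of the 189 names, 136 have their reverse complement listed, 6 of them being their own, which leaves 65 pairs, 61 of them with unequal G and C. Among the 22 of these pairs with no run of G longer than 2, the name with more C was higher in 11 and the name with more G in 11. Among the 39 with a run of 3 or more, the name with more C was higher in 32 and the name with more G in 7. Of the 53 names without a listed partner, 44 have more C, 5 more G and 4 equal numbers. Single pairs did not all follow the run. (CCGCC)n and (GGCGG)n, with runs of 4, were nearly equal, at 68.0 and 68.1 CPM over the 4 libraries. (GCGCC)n had 54.2 CPM and (GGCGC)n 93.1 CPM, and (CCGCG)n had 65.0 CPM and (CGCGG)n 43.6 CPM. In contrast, (CGGCCC)n had 31620 reads and (GGGCCG)n had 22 reads. This pair leaves out the other starting letters of the same array. (GGCCGG)n, another G-rich name of that family, had 1958 reads. Over the whole (CCCCGG)n family the ratio of C-rich to G-rich names was 21.5.

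The hexanucleotide family that includes (GGGGCC)n is of interest because expansion of this unit in a human gene is a known cause of motor neuron disease and frontotemporal dementia, and its G-rich RNA folds into G-quadruplexes. In these chick libraries the name (GGGGCC)n had 0 and 0 reads in knockout, against 1 and 0 in control folds. Its reverse complement (GGCCCC)n had 609 and 572 reads in knockout, against 546 and 497 in control folds, or 15.7 and 14.5 CPM in knockout folds, against 13.5 and 12.4 CPM in control folds. Both knockout libraries were above both control libraries. Its log2 fold change was 0.22 (SE 0.14, 95% interval -0.061 to 0.50, edgeR adjusted p = 0.9997), so it did not pass.

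The other names of that family spread over a wide range. (GCCCCG)n had 49.4 and 53.1 CPM in knockout folds, against 51.9 and 47.1 CPM in control folds. (GGCCGG)n, a G-rich name, averaged 12.4 CPM over the 4 libraries, (CCCGGC)n 9.28 CPM, (CCGGCC)n 8.40 CPM and (CCCCGG)n 4.93 CPM. (CCGGCC)n had 8.97 and 7.95 CPM in knockout folds, against 10.7 and 5.96 CPM in control folds, so the control libraries differed more than the groups did. The remaining G-rich names were lower: (CGGGGC)n averaged 0.542 CPM and (GCCGGG)n 0.272 CPM, and (CCGGGG)n had 2 and 3 reads in knockout, against 0 and 0 in control folds, at or under the limit of 3 reads in every library.

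The core of the GC box, GGGCGG, is the sequence that SP1-family transcription factors bind in many promoters. It was searched on both strands in the tandem repeat, as GGGCGG or CCGCCC, and overlapping matches were allowed. Of the 189 names, 45 hold it, or 23.8%, against 0.258% of the 9679 other simple repeats with units of 5 to 9 letters. Both the motif and the names hold only G and C, so this difference follows from how the names were chosen and is no result about them. The 3 of highest level follow with the motif in capitals, to show where it lies in the array, and their values are given above.
GC box holder ranked highest, (CGCCC)n: cgccCCGCCCCGCCC
GC box holder on the G-rich strand, (GGCGG)n: ggcgGGGCGGGGCGG
GC box holder next in level, (CCGCC)n: CCGCCCCGCCCcgcc
The match describes the letters of the unit and is no evidence of a bound site. The 45 names summed to 568 and 612 CPM in knockout folds, against 642 and 558 CPM in control folds, a ratio of 0.984. The groups overlapped.

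Knockout of Chiwi was compared with control guides in an edgeR quasi-likelihood fit over all 2803 repeat names that passed the filter, with p-values adjusted over all of them by Benjamini-Hochberg at a threshold of 0.05. Of the 146 longer G/C-only names tested, 0 passed, against 0.0% of all names, and the smallest edgeR adjusted p was 0.9997. An unadjusted p under 0.05 was found for 1 of the 146, against 1.39% of all names. DESeq2 called 0 of the 146 at an adjusted p under 0.05, against 0 of all 2803 names. Of the 146, 84 lay above 0 and 62 below 0 on the log2 fold change scale, against 48.9% above 0 over all names. Their median was 0.023, and over all names it was -0.0043. This split turned with the control library kept. Without control replicate 1, 150 of the longer G/C-only names were tested, and 124 lay above 0 and 26 below. Their median was 0.12, against 0.051 over all names. Without control replicate 2, 151 were tested, and 54 lay above 0 and 97 below. Their median was -0.060, against -0.026 over all names.

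The intervals describe the difference between these pools, and their widths draw on a spread shared over all repeat names tested. Electroporation reaches only some of the cells, so they do not bound a change within cells that lost Chiwi. For 120 of the 146 names the 95% interval of the log2 fold change lay within 1 unit on either side of 0, and this held for 115 of the 118 names with at least 1 CPM and for all of the 30 highest. The median interval extended 0.38 to either side. For the 5 highest names the log2 fold changes were 0.052 (SE 0.11) for (CGGCCC)n, 0.025 (SE 0.11) for (CGGCG)n and 0.13 (SE 0.11) for (CGCCG)n. They were 0.0081 (SE 0.14) for (GGCGC)n and -0.073 (SE 0.12) for (CGCCC)n.

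**Figure D4:**
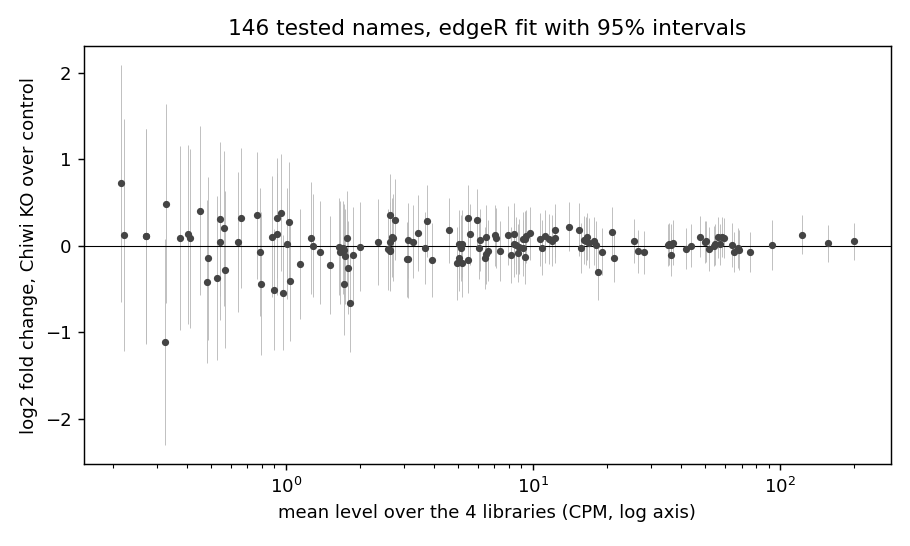
Log2 fold change, Chiwi knockout over control, of the 146 tested longer G/C-only names against their mean level over the 4 libraries (CPM, log axis), with bars for the 95% intervals of the edgeR fit. The intervals narrow with level, and 0 of the 146 names passed the threshold.

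By length, the 31 tested names of 5 letters had log2 fold changes from -0.16 to 0.35 and the 47 of 6 letters from -1.12 to 0.36. The 63 of 7 letters ranged from -0.67 to 0.72. The -1.12 was that of (GCGGGG)n, which averaged 0.326 CPM, and the 0.72 that of (CCCCGGC)n, which averaged 0.215 CPM. Over the 118 names of at least 1 CPM the range was -0.67 to 0.36. The 5 of 8 letters ranged from -0.00050 to 0.49, and their median interval extended 0.70 to either side. The 44 tested names with more G had a median of 0.011 and the 87 with more C a median of 0.040, and the 15 with equal numbers had -0.00050. These medians are descriptions and were not tested.

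The name with the smallest p was (CCCCGCC)n, a C-rich unit of 7 letters that holds the GC box core and was already known from earlier results of these data. It had 59 and 51 reads in knockout, against 111 and 69 in control folds, or 1.52 and 1.29 CPM in knockout folds, against 2.75 and 1.72 CPM in control folds. The groups did not overlap, and control replicate 1 stood apart above the other 3 libraries. The log2 fold change was -0.67 (SE 0.27, interval -1.22 to -0.11), with an edgeR adjusted p of 0.9997. Leaving out control replicate 1 gave -0.29, and leaving out control replicate 2 gave -0.96. Its family (CCCCCCG)n, which takes in the other starting letters and the other strand, summed to 31.2 and 30.6 CPM in knockout folds, against 32.4 and 29.0 CPM in control folds, with a log2 fold change of 0.0093 (SE 0.11).

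Knockout and control libraries were fully apart for 28 of the 146 names, against 25.8% of all names. Both knockout libraries lay above both control libraries for 18 names, against 12.9% of all, and below them for 10, against 12.8% of all. Among names of at least 1 CPM with higher knockout libraries, the 5 with the smallest p included (GGCCCC)n, given above. Another, (CGGCCGC)n, had 7.12 and 5.99 CPM in knockout folds, against 5.45 and 5.19 CPM in control folds (log2 fold change 0.30, SE 0.17). (GGGCGC)n had 2.50 and 3.43 CPM in knockout folds, against 2.35 and 2.27 CPM in control folds (log2 fold change 0.36, SE 0.23). The log2 fold change was 0.29 for (CCGGCG)n, with an SE of 0.20, and 0.18 for (CGGGC)n, with an SE of 0.19. Knockout replicate 2 set much of the size for (GGGCGC)n, at 0.11 without it and 0.57 without knockout replicate 1, and for (CCGGCG)n, at 0.084 without it and 0.46 without knockout replicate 1. (CGGCCGC)n had 0.17 without knockout replicate 1 and 0.42 without knockout replicate 2. None of these 5 passed in the edgeR fit.

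Among names of at least 1 CPM with lower knockout libraries, the 4 with the next smallest p after (CCCCGCC)n are given here. The first of them, (CCGCCGC)n, had 8.72 and 9.06 CPM in knockout folds, against 10.3 and 9.15 CPM in control folds (log2 fold change -0.13, SE 0.15). (CGGCGG)n had 26.0 and 26.4 CPM in knockout folds, against 27.8 and 27.0 CPM in control folds (log2 fold change -0.065, SE 0.12). The log2 fold change was -0.15 for (GCGCCG)n, with an SE of 0.18, and -0.16 for (GCCCCCC)n, with an SE of 0.21. None of these passed in the edgeR fit.

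Longer G/C-only families that sum several names gave the test more reads than any of those names alone. Over the whole set of repeats, 1143 families and other repeat names were tested, and 0 of 26 longer G/C-only families passed, against 0.0% of all. At an unadjusted p under 0.05 it was 0 of the 26, against 0.962% of all. DESeq2 called 0 of the 26 at an adjusted p under 0.05, against 0 of all 1143. Of the 26 families, 16 had a log2 fold change above 0, against 48.5% of all. Groups did not overlap for 3 of the 26, against 23.5% of all. All 3 had both knockout libraries above both control libraries, against 11.6% of all, and 0 had them below, against 11.9% of all. For the 16 families of at least 10 CPM, log2 fold changes ran from -0.091 to 0.085, and the outermost 95% bounds were -0.40 and 0.31, or 0.760-fold and 1.24-fold. The (CCGCG)n family had a log2 fold change of 0.032 (interval -0.21 to 0.28) and the (CCCCG)n family -0.045 (interval -0.28 to 0.19). The (CCCGG)n and (CCCCGG)n families had 0.035 (interval -0.19 to 0.26) and 0.060 (interval -0.16 to 0.28).

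The replicate numbers told different directions. Between libraries numbered 1, the summed level was lower in knockout than in control by a log2 difference of -0.11, and between libraries numbered 2 it was higher by 0.16. The same signs appeared for names with more G (-0.098 and 0.14), more C (-0.11 and 0.16) and equal numbers (-0.11 and 0.16). Units of 5, 6 and 7 letters had these signs too. Units of 8 letters, at low levels, were higher in knockout for both numbers (0.21 and 0.14). The single name of 9 letters, with 11 reads, was lower for both (-0.68 and -0.97). Of the 146 names, 87 were lower in knockout for number 1 and higher for number 2, against 39.1% of all names tested, and of the 26 families 20 did so, against 42.9% of all families. The labels do not say whether libraries that share a number share embryos.

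The 2 control libraries often lay at the ends of the range. Both knockout libraries were between them for 43 of the 146 names, against 20.4% of all names, and for 14 of the 26 families, against 20.7% of all families. Control replicate 1 was the highest and control replicate 2 the lowest library for 41 of the 146 names, against 14.1% of all names. In all 26 families tested, control replicate 1 exceeded control replicate 2, against 58.6% of all families. Without control replicate 1, 26 of the 26 families had a positive log2 fold change, with a median of 0.15, against 0.036 over all families. Without control replicate 2, 7 were positive and 19 negative, with a median of -0.079, against -0.023 over all families. With either left out, 0 of the 26 families passed in the edgeR fit, against 0.0% of all families. Of the longer G/C-only names 0 passed either, against 0.0333% of all names without control replicate 1 and 0.0659% without control replicate 2.

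This order of the control libraries followed the base content of the repeat unit across all simple repeats of 5 or more letters, a grouping chosen after the values were seen. Control replicate 1 over control replicate 2 was 0.865 for units without G or C, 0.942 for a G and C share above 0 up to 0.4, 1.01 up to 0.6, 1.08 up to 0.8, 1.12 above that and 1.16 for units of G and C alone. The knockout libraries did not climb steadily, with knockout replicate 1 over knockout replicate 2 at 0.992, 0.976, 0.932, 0.948, 0.960 and 0.969 in the same order. The shorter G/C-only repeats of 1 to 4 letters, at 4429 and 4516 CPM in knockout folds, against 4751 and 4126 CPM in control folds, stood in the same order as the longer ones. The 265 longer repeats of A and T alone stood in the opposite order of controls, at 431 and 435 CPM in knockout folds, against 415 and 480.2 CPM in control folds. Base content of the library as a whole was not measured, and the part of the control libraries' difference in the comparison was not tested.

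**Figure D5:**
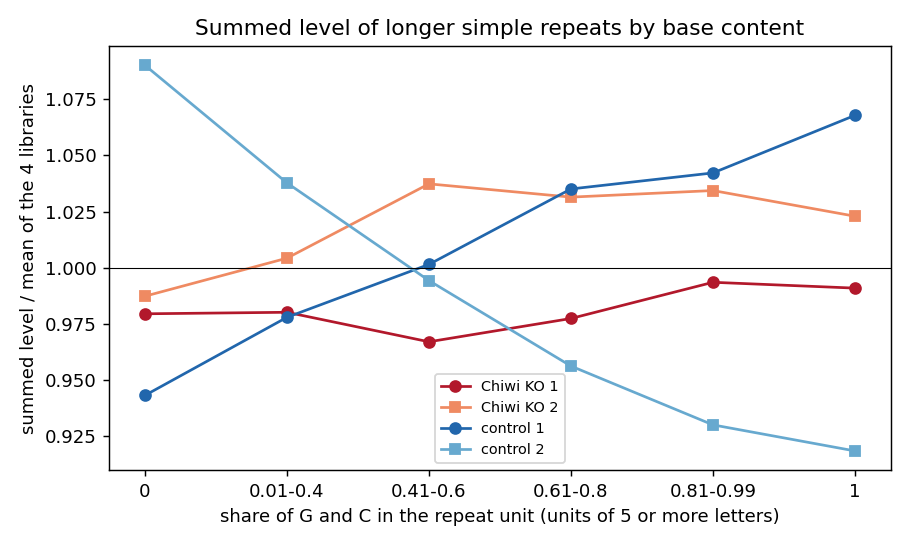
Summed level of simple repeats with units of 5 or more letters in each library, divided by the mean of the 4 libraries, against the share of G and C in the unit. Control replicate 1 climbs and control replicate 2 falls across the groups, while the knockout libraries stay between 0.967 and 1.04.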

How the data were processed

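The authors deposited, for each library, raw counts of reads by Ensembl gene and, separately, by repeat name, as whole numbers without a header. Bowtie2, featureCounts and DESeq2 with the galGal6 build are named in the submitters' processing notes; their versions, the strand setting and the treatment of multi-mapping reads were not given in the sources used here. That treatment can move reads between names with the same array, and a repeat read may come from a host gene. Counts were tested with edgeR 4.0.16 (R 4.3.3): filterByExpr (minimum count 10, minimum total 15), glmQLFit and glmQLFTest with group as the only term, and library size set to the summed gene reads of each library. SE was taken from the fold change and the F statistic. The fit was tested on simulated counts, drawn with a spread common to all names and without a difference by base content between control libraries. Named members are the 10 highest, the highest per length, up to 5 per direction without overlap at 1 CPM or more, the top strand pairs, the hexanucleotide and GC box names, and (CCCCGCC)n. Members, lists and rules were chosen with earlier results of these data known. DESeq2 1.42.0, other scalings, no filter, a replicate block and leaving out each library were the alternatives. Of the 5 highest names with the GC box core, 2 are not reported here.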

Additional observations from a re-analysis of the deposited data

How the results depend on the processing

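No longer G/C-only name or family passed in the edgeR fit, and none passed with TMM or median-of-ratios factors from the gene table, scaling from the repeat table, no low-count filter, DESeq2, the replicate block, or any 1 library left out. Over the whole repeat table the count of names past the threshold was 0 in the reported fit and 0 to 2 when 1 library was left out: 1 without control replicate 1 and 2 without control replicate 2, none of them a longer G/C-only name. A lone library was then assumed to vary like the others. The replicate block called 0 names and 0 families; deviations of same-numbered libraries correlated at 0.219 over 2803 names and 0.023 over the 146 members, and 2 pairs leave the pairing undecided. The summed ratio of knockout over control was 1.01 to 1.02 under the 3 other scalings and 0.943 to 1.10 with 1 library left out. Fold changes were followed for 21 of the named members: the highest names, the highest per length, those picked without overlap, and (CCCCGCC)n. Strand-pair, hexanucleotide and GC box names outside these groups were not followed. Of the 21, 0 turned under the 6 other settings, 9 turned with 1 library left out and 18 turned or moved by over 1.5 times. As log2 fold changes, with 1 library left out, (CGGCCC)n ran from -0.0069 to 0.11, (CGGCG)n from -0.043 to 0.097, (GGCGC)n from -0.27 to 0.35, (CGCCC)n from -0.20 to 0.070, (GGCGG)n from -0.16 to 0.074, (CCGCC)n from -0.13 to 0.065, (CCGCG)n from -0.18 to 0.033, (GCCGGCC)n from -0.16 to 0.21 and (CCGCCGGC)n from -0.10 to 0.36. Names that kept their sign but moved included (CGCCG)n from 0.018 to 0.24, (GCCGG)n from 0.033 to 0.15, (CCGCCGC)n from -0.22 to -0.042, (GCGCCG)n from -0.26 to -0.028 and (GCCCCCC)n from -0.23 to -0.078. The cause was not tested. Most of the intervals that extend past 2-fold belong to names under 1 CPM, where depth limits what can be shown.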
